A study of Mus musculus with 2 samples.

Results

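A group of 9 genes of nucleic acid sensing and the interferon response was followed in PB and PB-TERRA mESCs, chosen by symbol as 9 of the 18888 genes in the deposited table. They are the RNA sensors Ddx58 (gene ID 230073 in the table) and Ifih1 (71586), the interferon signalling factors Irf3 (54131) and Stat2 (20847), and the interferon-induced genes Isg15 (100038882), Ifitm1 (68713), Ifitm2 (80876), Ifitm3 (66141) and Bst2 (69550). All 9 were found, and 7 of them reached 1 FPKM (fragments per kilobase of gene length, scaled by sequencing depth) in at least 1 library. Both cultures were 46C mESCs, a mouse embryonic stem cell line that carries a GFP reporter at the Sox1 gene, at passages 21 to 24 on gelatin in standard mouse ES cell medium. PB cells carried the empty PiggyBac (PB) vector, a transposon that inserts into the genome. PB-TERRA cells carried the same vector with telomeric repeats, from which polyadenylated TERRA, the RNA transcribed from telomeres, was expressed. Whether either culture was a pool or a clone is not stated in the sources used here, and TERRA itself and cells without a vector are not analysed here. RNA of each was sequenced as 1 library, so the comparison has no replicate check, no test between the conditions was possible, and every difference below is between 2 libraries.

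Cells recognise foreign or misplaced RNA with cytoplasmic helicases. Ddx58 (RIG-I) binds RNA with an uncapped 5′ end and Ifih1 (MDA5) binds long double-stranded RNA. Both signal through Mavs and the kinase Tbk1 to the transcription factor Irf3, which switches on type I interferon. Secreted interferon acts through its receptor on Stat2 and Irf9, which take part in binding the interferon-stimulated response element in the promoters of interferon-induced genes. Pluripotent cells are known for a weak interferon response and for expressing some interferon-induced genes, among them members of the Ifitm family, without interferon.

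The start sites of the interferon-induced members are shown first, because they carry the element through which interferon acts, where it was found. The interferon-stimulated response element was searched as its core, GAAANNGAAA, on both strands of the RefSeq promoter windows of GRCm38.p6, which run from 250 bases before the start site to 50 after it. The authors' processing notes name mm9, and the deposited table has no coordinates, so these positions are not joined to it. The core was in the windows of 7 of the 9 genes, and in 3.44% of all 32851 windows. Isg15 had 3 overlapping matches, Ifitm3 and Bst2 had 2 each, and Ddx58, Ifih1, Stat2 and Ifitm2 had 1 each. In the windows of Ifitm1 and Irf3 these letters were not found. The 180 bases from -150 to 30 are printed 5′ to 3′ for the 5 interferon-induced members, with the matches in capitals.
Ifitm1, chr7:140967926-140968105, plus strand: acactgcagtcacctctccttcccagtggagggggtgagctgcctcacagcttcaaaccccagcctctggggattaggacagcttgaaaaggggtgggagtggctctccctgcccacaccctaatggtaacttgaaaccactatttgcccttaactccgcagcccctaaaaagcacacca
Ifitm2, chr7:140955932-140956111, minus strand: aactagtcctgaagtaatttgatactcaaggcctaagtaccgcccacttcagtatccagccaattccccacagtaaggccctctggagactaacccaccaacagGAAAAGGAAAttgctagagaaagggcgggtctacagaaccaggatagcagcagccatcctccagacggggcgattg
Ifitm3, chr7:141010715-141010894, minus strand: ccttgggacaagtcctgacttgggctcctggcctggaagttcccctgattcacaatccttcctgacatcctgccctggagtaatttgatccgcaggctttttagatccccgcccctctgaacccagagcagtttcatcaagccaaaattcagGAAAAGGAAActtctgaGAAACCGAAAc
Bst2, chr8:71537443-71537622, minus strand: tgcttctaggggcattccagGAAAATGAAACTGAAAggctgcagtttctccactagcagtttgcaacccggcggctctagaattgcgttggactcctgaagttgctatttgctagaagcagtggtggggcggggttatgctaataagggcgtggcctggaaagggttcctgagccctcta
Isg15, chr4:156200789-156200968, minus strand: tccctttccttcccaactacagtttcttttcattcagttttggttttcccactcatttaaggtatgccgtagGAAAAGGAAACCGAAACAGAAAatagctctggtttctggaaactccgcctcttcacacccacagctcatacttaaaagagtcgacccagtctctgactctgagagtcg
The start sites of Ifitm2 and Ifitm1 lie 12.1 kb apart on chromosome 7, and those of Ifitm1 and Ifitm3 42.7 kb apart. A match is a run of letters and not a measured binding site.

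The libraries were of nearly equal depth, with about 24780000 reads in PB and 24860000 in PB-TERRA, as estimated from the steps in low FPKM values. Read numbers below are estimates on that basis. Their 95% intervals are exact Poisson intervals for a level and exact binomial (Clopper-Pearson) intervals for a ratio, and they cover counting error only. Each difference is given as the log2 of the PB-TERRA value over the PB value after 0.1 FPKM was added to both, a scale that understates differences of genes at low FPKM. Over the 12263 genes that reached 1 FPKM in at least 1 library the median log2 ratio was -0.0044. As a check of the label, 10 of 10 embryonic stem cell markers had 31.89 to 1162.50 FPKM in PB and 37.13 to 1039.92 FPKM in PB-TERRA. The 8 primitive endoderm markers summed to 12.62 FPKM in PB and 17.34 FPKM in PB-TERRA, each of them having the higher value in PB-TERRA. The 8 fibroblast markers summed to 19.72 and 23.90 FPKM. Of the blood and immune markers 7 were found, summing to 15.55 and 19.70 FPKM. Cd68 accounted for 15.09 and 19.11 FPKM of that sum, while the pan-leukocyte gene Ptprc was at 0.02 and 0.01 FPKM. Gata6, a primitive endoderm factor, had 1.22 and 2.26 FPKM, Dab2 had 5.04 and 6.35 FPKM, and Sox17 had 0.32 and 0.40 FPKM. Of the fibroblast markers, the collagen gene Col1a1 had 7.99 and 12.14 FPKM and Thy1 had 9.16 and 8.39 FPKM. The part of other cell types in the results below was not tested, and in bulk RNA fewer cells of a type and less RNA per cell cannot be told apart.

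The RNA sensors differed from each other in level far more than either did between the libraries. Ddx58 had 8.32 FPKM in PB and 9.63 FPKM in PB-TERRA, from about 853 and 990 reads. Its log2 ratio was 0.21, and the interval of the read ratio, 0.08 to 0.34, lay above 0. Ifih1 was close to the lower end of detection, with 0.08 and 0.07 FPKM from about 11 and 9 reads. Its read ratio had an interval from -1.74 to 1.11, so a difference between the libraries was not detectable at this depth. The other helicase of this family, Dhx58 (LGP2), was also low, at 0.42 FPKM in both libraries. Of these helicases Ddx58 alone had RNA above 1 FPKM.

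The signalling factors were at moderate levels and differed little. Irf3, the transcription factor activated downstream of the sensors, had 9.97 FPKM in PB and 9.77 FPKM in PB-TERRA (about 502 and 493 reads). Its log2 ratio was -0.03, and the interval of the read ratio ran from -0.21 to 0.15. Stat2, which carries the interferon signal to the nucleus, had 5.37 and 4.62 FPKM (about 577 and 498 reads). The log2 ratio of Stat2 was -0.21, lower in PB-TERRA, and its interval, -0.39 to -0.04, lay below 0. Its partner Irf9 had 2.98 and 2.83 FPKM (log2 ratio -0.07), and the interval included 0.

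The 3 Ifitm genes, whose proteins hinder the entry of viruses at cell and endosome membranes, were among the most abundant transcripts of both cultures and went in different directions. Ifitm1 had 221.04 FPKM in PB and 153.37 FPKM in PB-TERRA, from about 3204 and 2230 reads. It was 1.44-fold lower in PB-TERRA (log2 ratio -0.53, interval of the read ratio -0.61 to -0.45). Ifitm3 had 248.50 and 321.72 FPKM, from about 3282 and 4263 reads. It was 1.29-fold higher in PB-TERRA (log2 ratio 0.37, interval 0.31 to 0.44). Ifitm2 had 311.98 and 313.20 FPKM, from about 4105 and 4134 reads. Its log2 ratio was 0.01, with an interval from -0.06 to 0.07.
Ifitm1 and Ifitm3 thus had intervals on opposite sides of 0 while Ifitm2, the nearer neighbour of Ifitm1, had one around it. The 3 genes together had about 10591 reads in PB and 10627 reads in PB-TERRA, with a log2 ratio of 0.0002 (interval -0.04 to 0.04). Ifitm1 made up 28.3% of the summed FPKM in PB and 19.5% in PB-TERRA. Ifitm3 made up 31.8% and 40.8%, and Ifitm2 39.9% and 39.7%. The FPKM of Ifitm3 was 1.12 times that of Ifitm1 in PB and 2.1 times in PB-TERRA.
The other family members were far lower. Ifitm5 had 1.30 and 1.49 FPKM and Ifitm7 had 0.99 and 1.20 FPKM, each from at most 23 reads, and the intervals of both included 0. Ifitm6 and Ifitm10 did not reach 0.2 FPKM in either library.
Similar copies limit the single values to different degrees. Of the 50-base stretches in the GENCODE M21 transcripts, 5.02% of those in Ifitm1, 48.5% of those in Ifitm2 and 10% of those in Ifitm3 also occur in transcripts of other genes. Most of the sharing of Ifitm2 is with predicted genes, and 36.1% of all its stretches also occur in Gm45717. Between Ifitm1 and Ifitm3 it was small, with 1.42% of the stretches of Ifitm1 and 2.38% of those of Ifitm3. How the authors' counting treated such reads is not given in the sources used here, so the value of Ifitm2 is the least certain of the 3.

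**Figure D1:**
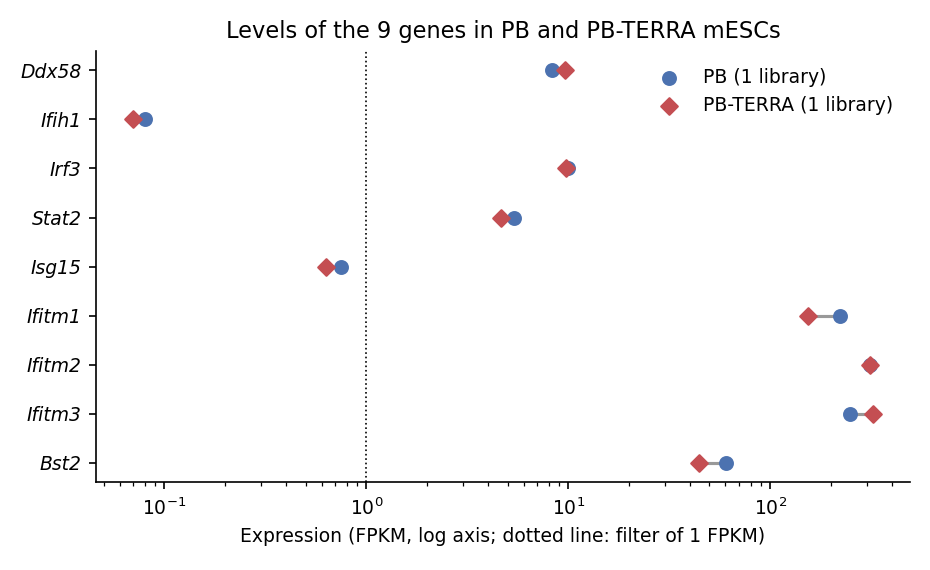
FPKM of the 9 genes (log axis) in PB (circles) and PB-TERRA (diamonds), 1 library each, with a dotted line at 1 FPKM. The 3 Ifitm genes lie between 153.37 and 321.72 FPKM, Bst2 between 44.41 and 60.61 FPKM, and Isg15 and Ifih1 lie below 1 FPKM in both libraries.

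Bst2 (tetherin), which holds budding virus particles at the cell surface, was lower in PB-TERRA. It had 60.61 FPKM in PB and 44.41 FPKM in PB-TERRA, from about 1128 and 829 reads. That is 1.36-fold lower (log2 ratio -0.45, interval of the read ratio -0.58 to -0.32). No 50-base stretch of Bst2 occurs in transcripts of another gene (0 of 872 stretches). Isg15, the ubiquitin-like protein that is attached to other proteins after interferon, was low in both libraries, at 0.75 and 0.63 FPKM. With about 12 and 10 reads, the interval of its read ratio ran from -1.64 to 1.07, and a difference was not detectable. Both genes hold overlapping matches to the response element core in the windows printed above, and their levels lay far apart.

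In order of level, Ifitm2, Ifitm3, Ifitm1 and Bst2 led in PB, followed by Irf3, Ddx58 and Stat2, and then by Isg15 and Ifih1. In PB no neighbours among the 7 genes past the filter had overlapping counting intervals of FPKM. In PB-TERRA the order differed at the top, where Ifitm3 (312 to 332 FPKM) and Ifitm2 (304 to 323 FPKM) overlapped. The intervals of Irf3 (8.93 to 10.7 FPKM) and Ddx58 (9.04 to 10.2 FPKM) also overlapped there. Ifitm1 was the third in both libraries, with an interval of 213 to 229 FPKM in PB and of 147 to 160 FPKM in PB-TERRA.

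Each count of members is set beside the share of all genes that reached the same mark. Of the 7 members past the filter, 1 (Ifitm3) was higher by a log2 ratio of at least 0.25, which 8.02% of all genes past the filter were. Ifitm1 and Bst2, 2 of the 7, were lower by at least 0.25, as were 9.6% of all genes. Over all genes these shares stand for 983 higher and 1177 lower, and after both libraries were rescaled to a common sum 1287 were higher and 919 lower, while the members numbered 1 and 2 as before. A log2 ratio of 1 in either direction was reached by 0 of the 7 members and by 0.913% of all genes. The counting interval lay above 0 for 2 of the 7 (Ddx58 and Ifitm3) and for 18.1% of all genes. It lay below 0 for 3 (Stat2, Ifitm1 and Bst2) and for 17.6% of all genes. The 7 genes are too few to read these shares closely. Isg15 and Ifih1, which did not pass the filter, had log2 ratios of -0.22 and -0.08.
Level and length matter to this reading. Among the 1734 genes that averaged 50 FPKM or more, where Ifitm1, Ifitm2, Ifitm3 and Bst2 belong, 5.13% were lower by at least 0.25 and 2.19% were higher. Among the 525 genes of 600 to 900 bases past the filter, the length of these 4 genes, 21.9% were lower by at least 0.25 and 11.6% were higher, with a median log2 ratio of -0.06. With the median of genes of like length taken off, the log2 ratio was -0.45 for Ifitm1, -0.39 for Bst2 and 0.41 for Ifitm3.

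**Figure D2:**
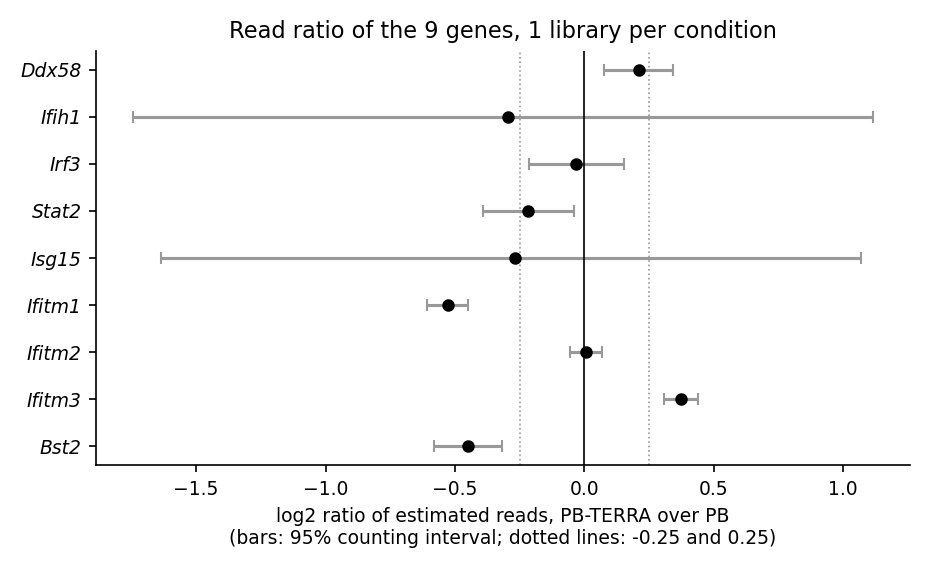
Log2 ratio of estimated reads, PB-TERRA over PB, for the 9 genes (points), with 95% counting intervals (bars) and dotted lines at -0.25 and 0.25. The intervals of Ifitm1 and Bst2 lie wholly below -0.25 and that of Ifitm3 wholly above 0.25, while those of Ifih1 and Isg15 reach from below -1 to above 1.

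The wider pathway was described with gene lists by role. Of the 31 listed sensors and adaptors, 29 were found and 20 passed the filter. Their median log2 ratio was 0.0003. The counting interval lay above 0 for 7 of the 20 and below 0 for 1, beside 18.1% and 17.6% of all genes. By at least 0.25, 3 were higher and 1 was lower, beside 8.02% and 9.6% of all genes. Eif2ak2 (PKR), a kinase that halts translation when it binds double-stranded RNA, had 4.51 FPKM in PB and 5.60 FPKM in PB-TERRA (log2 ratio 0.31, interval 0.13 to 0.49). Myd88, the adaptor of most Toll-like receptors, had 7.51 and 9.17 FPKM (0.28, interval 0.08 to 0.50). The third was Trim25, a ubiquitin ligase that acts on RIG-I, with 33.06 and 39.87 FPKM (0.27, interval 0.21 to 0.33), which is named after its values were seen. Rnf135, another ligase of RIG-I, was the lowest, at 1.75 and 1.39 FPKM (-0.31), but its interval, -0.82 to 0.17, included 0. Ddx41, a DEAD-box helicase, had 41.87 and 36.06 FPKM (-0.21, interval -0.31 to -0.13). Mavs, through which both helicases signal, had 11.50 and 10.56 FPKM (-0.12), and its interval included 0.
Levels within the list ranged widely. Hmgb1, Ddx3x and Dhx9, abundant proteins that also bind nucleic acids, had 242.10, 197.45 and 169.78 FPKM in PB and 252.35, 204.67 and 169.29 FPKM in PB-TERRA. The 9 genes under the filter include the double-stranded RNA receptor Tlr3, which had 0.26 and 0.24 FPKM. Zbp1, a sensor of left-handed nucleic acids that has been reported to bind TERRA in human cells, had 0.52 and 0.58 FPKM from about 12 and 13 reads, and a difference was not detectable. The DNA sensing adaptor Tmem173 (STING) also stayed under the filter, at 0.42 and 0.97 FPKM. With about 22 and 52 reads its read ratio had an interval from 0.49 to 2.03. These 6 genes are named after their values were seen.

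Of the 11 genes that clear or edit nucleic acids, 10 passed the filter, with 0 higher and 2 lower by at least 0.25 and a median of -0.06. Over all genes 8.02% were higher and 9.6% lower. The counting interval lay above 0 for 0 of the 10 and below 0 for 3, beside 18.1% and 17.6% of all genes. Trex1, the exonuclease that degrades cytoplasmic DNA, had 2.98 FPKM in PB and 1.38 FPKM in PB-TERRA, from about 71 and 33 reads (log2 ratio -1.06, interval of the read ratio -1.75 to -0.50). Adarb1, an RNA-editing deaminase, had about 398 and 322 reads (-0.30, interval -0.53 to -0.09). Xrn1 and Samhd1 had the highest log2 ratios, 0.02 and 0.01.

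Of the 35 kinases and transcription factors, 28 passed the filter, with a median of 0.02, and 25 of them lay within 0.25 of 0. By at least 0.25, 1 was higher and 2 were lower, beside 8.02% and 9.6% of all genes. The counting interval lay above 0 for 3 and below 0 for 4, beside 18.1% and 17.6% of all genes. Irf1, a transcription factor of interferon-gamma responses and of basal antiviral genes, was lower in PB-TERRA, at 21.14 and 14.55 FPKM (about 1066 and 736 reads). Its log2 ratio was -0.54 with an interval from -0.68 to -0.40. Nfkb2, a subunit of the NF-kappaB family, had 15.40 and 12.11 FPKM (-0.34, interval -0.47 to -0.22). Tank, an adaptor of Tbk1, was higher, at 4.65 and 5.83 FPKM (0.32, interval 0.07 to 0.59). Irf2bpl had 29.46 and 34.26 FPKM (0.22, interval 0.15 to 0.29). Tbk1 itself had 11.48 FPKM in both libraries. Irf7, the factor that amplifies the interferon response, was at 0.01 FPKM in PB and 0.07 FPKM in PB-TERRA, from 0 and about 3 reads.

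The receptors were measured at low to moderate levels and none of the 5 past the filter differed by 0.25. Ifnar1 and Ifnar2, the chains of the type I interferon receptor, had 8.92 and 7.44 FPKM in PB and 8.71 and 8.13 FPKM in PB-TERRA (log2 ratios -0.03 and 0.13). Il10rb and Ifngr2 had log2 ratios of -0.03 and 0.06. For all 5 the counting interval included 0. The 21 interferon genes of the list are not analysed here.

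Interferon-induced genes were the list with the most genes lower in PB-TERRA. Of 84 listed, 78 were found and 34 passed the filter. Of these 34, 12 (35.3%) were lower and 2 were higher by at least 0.25, and the median of the log2 ratios was -0.17. The shares over all genes were 9.6% and 8.02%. Leaving aside the members that the list shares, 10 of 30 (33.3%) were lower and 1 was higher, with the same median of -0.17. Below 0 were 27 of the 34, as were 6244 of the 12263 genes past the filter. The counting interval lay below 0 for 13 of the 34 and above 0 for 2, beside 17.6% and 18.1% of all genes.
Cxcl10, a chemokine, had the lowest log2 ratio, with 3.21 FPKM in PB and 1.99 FPKM in PB-TERRA (-0.66, interval -1.22 to -0.16). Psmb8, a subunit of the immunoproteasome, had 1.78 and 1.19 FPKM (-0.54), with an interval from -1.26 to 0.09 that included 0. The highest besides Ifitm3 was Lgals9, a galectin, with 4.51 and 5.44 FPKM (0.27, interval -0.06 to 0.59).
Besides Cxcl10, Psmb8, Ifitm1 and Bst2, the genes lower by at least 0.25 were Tap2, Gbp2, H2-K1, B2m, Irgm1, Parp9, Oas1a and Ifi30, named after their values were seen. H2-K1, a heavy chain of MHC class I, had 25.90 and 19.27 FPKM (-0.42, interval -0.57 to -0.29). B2m, its light chain, had 32.88 and 24.76 FPKM (-0.41, interval -0.59 to -0.23). Tap2, a chain of the peptide transporter, had 1.83 and 1.30 FPKM (-0.46, interval -0.93 to -0.06), whereas its partner Tap1 had 3.04 and 3.35 FPKM (0.14, interval -0.14 to 0.41). The GTPases Gbp2 and Irgm1 had log2 ratios of -0.46 and -0.40, with intervals below 0. H2-D1, another class I heavy chain, had 10.51 and 9.52 FPKM (-0.14), and its interval included 0.
Antiviral effector genes of the list differed in level. Oas1a, an enzyme that activates RNA decay, had 2.63 and 2.10 FPKM (-0.31), with an interval from -0.73 to 0.08 that included 0. Ifit2 had 0.69 and 0.54 FPKM from about 66 and 51 reads. Others were near the lower end of detection, where Ifit1 had 0.03 and 0.08 FPKM, Ifit3 0.01 and 0.02 FPKM, Mx1 0.03 and 0.04 FPKM, and Rsad2 0.03 and 0.11 FPKM, each from at most 10 reads. Their intervals included 0 where the read ratio could be given, and no interval lay above 0. The listed genes under the filter whose interval excluded 0 were all lower in PB-TERRA. They were Gbp4 (about 76 and 43 reads), Igtp (31 and 16), Oas1b (8 and 1) and Ifi27l2a (7 and 0). In all, 44 of the 78 genes did not reach 1 FPKM. These genes are named after their values were seen.

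**Figure D3:**
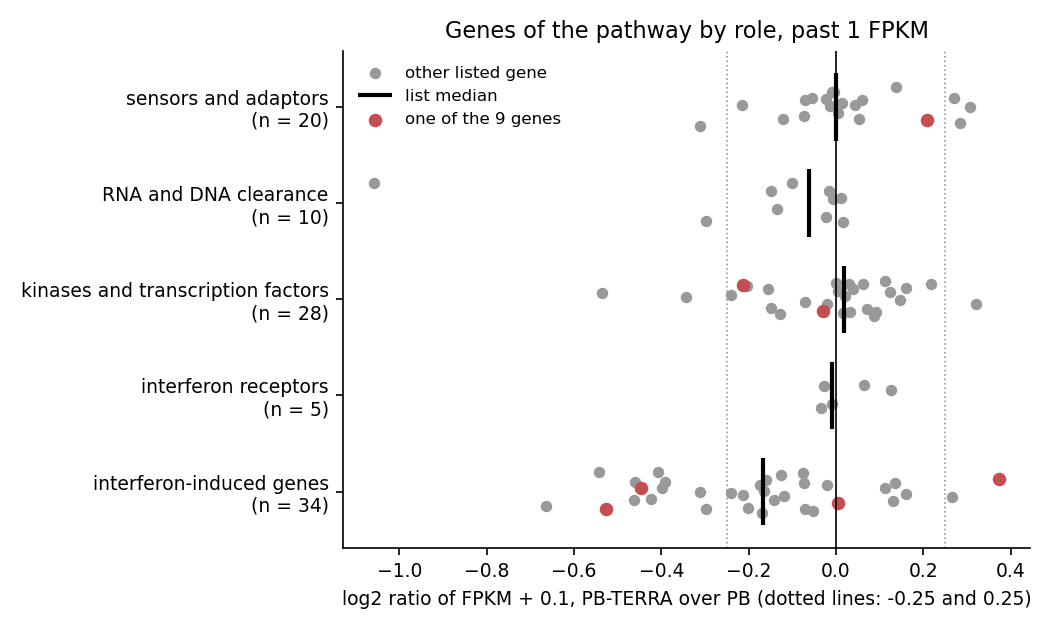
Log2 ratio of FPKM + 0.1, PB-TERRA over PB, of genes past 1 FPKM in 5 lists by role, with members in red and list medians as black bars (vertical scatter is arbitrary, and a gene in 2 lists is drawn in both). The median of the interferon-induced genes is -0.17, while the medians of the other 4 lists lie between -0.06 and 0.02.

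Promoter windows were available for 66 of the 84 interferon-induced genes, and 29 of these (43.9%) held the core of the response element. Among the listed genes past the filter, 10 had the core in a window and 19 had a window without it. Of the 10 with it, 6 were lower and 2 were higher by at least 0.25 in PB-TERRA, with a median log2 ratio of -0.35. Of the 19 without it, 4 were lower and 0 were higher, with a median of -0.16. These counts include the members Ifitm2, Ifitm3 and Bst2 with the core and Ifitm1 without it. The search was added after the data were seen, and whether the core bears on these differences was not tested. Over all genes past the filter, 12.5% of the 295 with the core and 8.35% of the 8788 without it were lower by at least 0.25, and 7.46% and 6.57% were higher. The medians were 0.0056 with the core and -0.0051 without it. Ifitm1, the member with the lowest log2 ratio, is among the genes without the core, and Ifitm3, the member with the highest, has it at positions 3 to 12 and 20 to 29 after its start site.

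**Figure D4:**
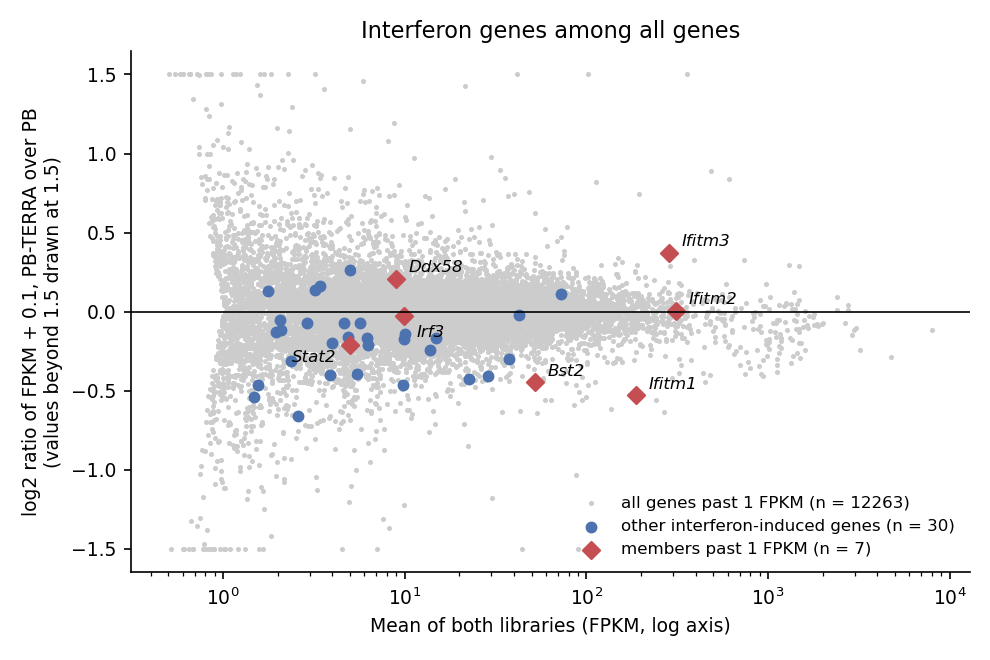
Log2 ratio of FPKM + 0.1 against mean FPKM (log axis) for 12263 genes past 1 FPKM in at least 1 library (grey; values beyond 1.5 are drawn at 1.5), with 30 other interferon-induced genes in blue and the 7 members past the filter in red. Ifitm3 lies above and Ifitm1 and Bst2 below most genes of their level, at 0.37, -0.53 and -0.45.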

How the data were processed

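The authors sequenced total RNA of 46C mESCs with the PB or the PB-TERRA vector, 1 library of each, on a BGISEQ500 instrument. The submitters' processing notes name HISAT, Cufflinks and the build mm9, without roles. The counter and the annotation are not given in the sources used here. The authors deposited 1 table, whose expression values are read as FPKM, rounded to 2 decimals with a lowest value of 0.01. The header names no unit. Once 115 bases, a fitted value, were taken off each gene length, FPKM times length summed to 0.9997 and 0.9994 of the total that FPKM over all reads would give. The deposited gene lengths are in bases. The authors' columns of fold changes, p-values and adjusted p-values were not used.

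Depth was found as the total that brought low values of short genes nearest to whole reads. Of 826 values in PB and 879 in PB-TERRA, 82.6% and 85.2% lay within 0.15 of a whole number, where evenly spread values would give 30%. Reads of each gene are FPKM times the length less 115 bases times that total, rounded. The pseudocount was 0.1, the filter 1 FPKM in at least 1 library, and the thresholds on the log2 ratio were 0.25 (1.19-fold) and 1. The design allowed no test. The genes named were the members, and in each list the 2 highest and 2 lowest log2 ratios past the filter among other genes, of which 1 is not reported here. Other genes named, Dhx58, Mavs, Irf9, Tbk1, Irf7, Tap1, H2-D1, Ifitm6, Ifitm10 and the marker genes included, were chosen after their values were seen. Members, lists and thresholds were chosen with earlier results of these data known. The classes of level and length, and the search for the response element, were added after seeing the data. The depth estimate and the intervals were tested only on data simulated with Poisson error and the same 115 bases taken off. That checks the calculation and cannot show whether such error holds in these libraries. Calculations ran in Python 3.11.15 with scipy 1.17.1, numpy 2.4.6 and pandas 2.3.3, and plots were drawn with matplotlib 3.10.9.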

Additional observations from a re-analysis of the deposited data

How the results depend on the processing

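The log2 ratios of the members were recomputed with pseudocounts of 0.01 and 1, after centring on the median, after rescaling both libraries to a common sum, and with the median of 50 length bins taken off. All 45 values lay within the counting interval of the member. For Ifih1 (-1.74 to 1.11) and Isg15 (-1.64 to 1.07) the interval is too wide for this to be informative. Ifitm1 ranged from -0.53 to -0.45, Bst2 from -0.45 to -0.39 and Ifitm3 from 0.37 to 0.41, while Irf3, near 0, ranged from -0.03 to 0.01. Another filter leaves a single ratio as it is and changes counts only. The members past 0.25 were 1 higher and 2 lower, and 0 were past 1, under each of these alternatives, without the filter and with a mean of at least 5 FPKM. Rescaling to a common sum shifted the median of all genes by 0.04, and the interferon-induced genes past 0.25 were then 12 lower and 2 higher.

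Lists were most sensitive to the filter. Without it, 28 of the 78 interferon-induced genes were lower by 0.25 and 10 were higher, with 2 past 1. With a mean of at least 5 FPKM, 7 were lower and 1 was higher. Of all 8653 genes at that level, 6.04% were lower and 4.32% higher, beside 9.6% and 8.02% with the main filter. With a pseudocount of 1, 1 was higher. Without the filter, genes past 0.25 in either direction numbered 7 of 29 sensors and adaptors, 8 of 35 kinases and transcription factors, and 5 of 7 in the Ifitm family. With it they numbered 4 of 20, 3 of 28 and 3 of 5. Genes of clearance past 0.25 numbered 1 with a pseudocount of 1 and 0 with a mean of at least 5 FPKM, against 2. Over all 18888 genes, 2787 were higher and 2750 lower by 0.25 without the filter, and 374 and 523 of 8653 with a mean of at least 5 FPKM. Past 1 were 513 genes without the filter, 17 with a mean of at least 5 FPKM and 45 with a pseudocount of 1. A filter or a pseudocount changes these counts by its construction, since low values then enter, leave or shrink.

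No paired analysis was possible because each condition has 1 library. Counting intervals do not include the spread between cultures, which is unknown here.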
